A study of Mus musculus with 11 samples.

Results

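Chromatin accessibility was examined at 10 genes of one signalling pathway in the pubertal mouse mammary epithelium: the IL-6 family receptor genes Il6st, Lifr and Osmr, the transcription factor genes Stat3, Stat5a and Stat5b, and the feedback inhibitor genes Socs1, Socs2, Socs3 and Cish. ATAC-seq, in which a transposase cuts and tags open DNA, had given 153396 peaks over the whole series, and 286 of them were assigned to these genes. A peak was assigned if it overlapped the gene body or lay within 100 kb of an annotated start site. It went to the nearest of the 10 genes, so that position alone decided which peaks were assigned. The genes themselves were chosen with earlier results of these data known, so shares set against all peaks are descriptions. The 11 libraries came from the mammary glands of 5-week-old C57BL/6 mice that all carried an Ecad-GFP reporter, and from structures separated by micro-dissection: 3 libraries of basal cells from terminal end buds (TEBs), 2 of basal cells from ducts, 3 of luminal cells from TEBs and 3 of luminal cells from ducts. TEBs are the bulbous tips of the growing tree at puberty, and ducts are the tubes they leave behind. Basal and luminal cells were sorted as Lin-, CD29+ and CD24+ cells with low or high Ecad-GFP, with tissue from 3 independent pools of mice according to the series' design text, which does not tie replicate numbers to pools. The third basal duct sample had been discarded by the study for its low cell number and was not analysed here. Nothing in the labels says that the groups differed in genotype or treatment.

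Cytokines of the IL-6 family, such as LIF and oncostatin M, signal through a shared receptor chain, gp130, encoded by Il6st, which pairs with a second chain such as those encoded by Lifr or Osmr. Receptor-bound JAK kinases then phosphorylate STAT proteins, which dimerise and bind DNA at palindromic sites of the form TTCNNNGAA. The SOCS proteins and CISH are induced by STATs and shut the receptors off again. In the mammary gland Stat5a and Stat5b act downstream of prolactin in alveolar development and milk production, while LIF and Stat3 are known for driving cell death at involution after weaning.

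The 286 peaks had a median width of 395 bases, with widths of 150 to 2008 bases. Socs3 held 50 peaks, Lifr and Socs1 35 each, Stat3 32, Cish 31, Socs2 26, Stat5b 25, Osmr 24, Il6st 22 and Stat5a 6. In all, 17 lay within 500 bases of a start site of their gene, 228 lay more than 10 kb away, and 214 were outside the gene body. For 159 peaks the nearest protein-coding start site was that of the gene itself, and the other 127 were closer to a neighbour, such as Pgs1 and Tha1 at Socs3 or Cavin1 at Stat3. Peaks are named here by gene and by the distance of their centre from the nearest start site of that gene, with a plus sign for downstream. At the edge of the 100 kb window the outermost peaks inside it, at 99.5 to 99.8 kb, averaged 2.00 to 4.35 CPM (read counts scaled to a common library size) over the 11 libraries, and the first peaks outside, at 101.0 to 101.5 kb, averaged 1.29 to 2.62 CPM.

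Sequences are shown for 6 of the named peaks that differed between the cell populations and held a short match to a factor motif in their central 300 bases. They were picked as examples, and some named peaks with smaller p are not shown. Each line gives the central 300 bases (GRCm38, plus strand, sequence from RefSeq), with matches to the STAT letters TTCNNNGAA, the TEAD letters GGAATG and the AP-1 letters TGACTCA, searched on both strands, in capitals.
Socs3 +45.9 kb (chr11:117923155-117923454): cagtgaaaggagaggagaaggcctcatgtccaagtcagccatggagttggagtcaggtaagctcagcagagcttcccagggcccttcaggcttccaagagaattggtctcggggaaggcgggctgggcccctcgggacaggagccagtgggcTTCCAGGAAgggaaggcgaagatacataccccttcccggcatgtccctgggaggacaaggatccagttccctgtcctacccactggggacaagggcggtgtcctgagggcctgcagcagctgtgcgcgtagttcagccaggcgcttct
Socs3 +6.6 kb (chr11:117962430-117962729): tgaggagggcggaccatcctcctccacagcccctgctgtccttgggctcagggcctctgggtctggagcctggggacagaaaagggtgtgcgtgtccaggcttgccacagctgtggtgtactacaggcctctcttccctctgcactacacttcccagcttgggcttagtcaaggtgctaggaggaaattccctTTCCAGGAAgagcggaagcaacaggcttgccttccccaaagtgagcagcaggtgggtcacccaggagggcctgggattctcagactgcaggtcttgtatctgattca
Osmr -34.7 kb (chr15:6909510-6909809): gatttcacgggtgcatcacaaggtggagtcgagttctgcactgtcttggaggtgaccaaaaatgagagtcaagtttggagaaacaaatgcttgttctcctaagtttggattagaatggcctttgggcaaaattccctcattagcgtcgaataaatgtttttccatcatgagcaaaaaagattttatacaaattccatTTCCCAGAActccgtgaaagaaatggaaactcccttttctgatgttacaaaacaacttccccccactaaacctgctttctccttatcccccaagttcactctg
Cish +11.3 kb (chr9:107307882-107308181): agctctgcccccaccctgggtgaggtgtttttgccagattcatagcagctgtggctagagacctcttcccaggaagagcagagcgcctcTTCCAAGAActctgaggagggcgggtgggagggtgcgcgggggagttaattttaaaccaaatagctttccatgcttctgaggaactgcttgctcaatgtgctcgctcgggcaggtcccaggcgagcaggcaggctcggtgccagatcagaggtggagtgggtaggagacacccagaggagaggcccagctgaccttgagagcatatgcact
Stat5a -3.6 kb (chr11:100855598-100855897): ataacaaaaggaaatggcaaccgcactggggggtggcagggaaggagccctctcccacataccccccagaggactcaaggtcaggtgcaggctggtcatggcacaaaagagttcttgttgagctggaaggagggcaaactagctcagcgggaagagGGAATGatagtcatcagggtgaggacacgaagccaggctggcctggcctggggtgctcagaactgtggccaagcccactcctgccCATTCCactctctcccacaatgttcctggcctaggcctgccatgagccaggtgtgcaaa
Socs1 +30.8 kb (chr16:10754571-10754870): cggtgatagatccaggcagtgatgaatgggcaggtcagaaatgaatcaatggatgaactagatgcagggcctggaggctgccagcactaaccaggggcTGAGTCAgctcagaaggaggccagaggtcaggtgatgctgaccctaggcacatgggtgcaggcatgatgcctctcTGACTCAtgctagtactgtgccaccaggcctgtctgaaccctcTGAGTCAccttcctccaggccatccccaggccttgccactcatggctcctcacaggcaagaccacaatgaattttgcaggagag
In the Socs3 +45.9 kb peak the STAT match TTCCAGGAA stood at bases 153 to 161 of the window, next to its centre. The same 9 letters stood at bases 194 to 202 of the Socs3 +6.6 kb window, and in both windows they overlapped a match to the ETS letters AGGAAG. The Osmr -34.7 kb window had TTCCCAGAA and the Cish +11.3 kb window TTCCAAGAA. The Stat5a -3.6 kb window had 2 TEAD matches and no STAT match, and the Socs1 +30.8 kb window had 3 AP-1 matches. The first 5 were more accessible in basal than in luminal cells of ducts, and Socs1 +30.8 kb was more accessible in luminal cells. Over all peaks assigned to the genes, 128 were higher in basal than in luminal ducts and 77 were lower. STAT letters stood in 15.6% of the 128 central windows and 13.0% of the 77. TEAD letters stood in 32.8% and 13.0%, and AP-1 letters in 14.8% and 27.3%. Differences between these shares were not tested.

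The promoter peak of Cish held 4 STAT matches in its central 300 bases, the most of any of the 286 peaks, and these are shown as 2 pairs of 30 bases each (chr9:107296654-107296683 and chr9:107296762-107296791, GRCm38, plus strand) within the annotated first exon. The single match at Socs3 (chr11:117969501-117969530, minus strand) began 154 bases before the RefSeq start site. It lay inside the gene as annotated by GENCODE (chr11:117966079-117970047), whose start site was used for the peaks.
Cish promoter pair 1: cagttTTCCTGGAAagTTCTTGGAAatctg
Cish promoter pair 2: ggTTCTAGGAAgatgaggcTTCCGGGAAgg
Socs3 promoter: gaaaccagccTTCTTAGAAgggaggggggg
Of 32851 RefSeq promoter windows, from 250 bases before to 50 after a start site, 8.3% held a TTCNNNGAA match. Entries were found for 9 of the 10 genes, with 12 windows in all, and 2 windows held a match, those of Cish and Socs3. In the central 300 bases of all peaks of the series the letters were found in 9.45%, and in 44 of the 286 peaks (15.4%). Osmr held matches in 6 of 24 windows, Socs3 in 9 of 50, Socs1 in 8 of 35, and Stat5b in 1 of 25 and Lifr in 1 of 35. The ETS letters stood in 41.3% of the 286 windows and 34.1% of all windows, and the AP-1 letters in 20.3% and 20.7%. A match is a description of the letters and was not tested for binding.

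Total counts in peaks ran from 1821942 to 2489582 in the basal TEB libraries and 6816197 to 9986384 in the basal duct libraries, and from 2960093 to 3738324 in luminal TEB and 4650216 to 5561051 in luminal duct libraries. The median count per peak was 6 in each basal TEB library and 15 to 20 in basal duct libraries, so that folds at weak peaks were least precise in basal TEB cells. Promoter peaks of all 7 basal marker genes were higher in basal than in luminal ducts (edgeR exact test), and those of 7 of 8 luminal marker genes were lower, with Krt8 not passing. Over all protein-coding promoters the median log2 fold change of basal TEB over basal duct cells was -0.65, against 0.02 over all peaks, against which the promoter values below are to be read. A promoter peak was found for 3 of 6 fibroblast marker genes (Pdgfra, Col5a1 and Fbn1), and their summed accessibility was 57.8 to 79.8 CPM in basal TEB and 124 to 140 CPM in basal duct libraries, and 18.6 to 20.6 CPM in luminal TEB and 19.99 to 20.6 CPM in luminal duct libraries. Of 5 endothelial marker genes 2 had one, with summed values of 17.6 to 22.5 CPM in basal TEB and 25.2 to 28.7 CPM in basal duct libraries, against 4.92 to 7.57 CPM in luminal TEB and 4.45 to 7.31 CPM in luminal duct libraries. Of 7 immune marker genes 2 had one and of 5 adipocyte marker genes 1, at 5.62 to 19.0 CPM in any library. The fibroblast values were lower in basal TEB than in basal duct cells at all 3 promoters (edgeR exact test), and their part in the results was not tested. In bulk samples, fewer cells of a type and less accessibility per cell cannot be told apart.

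Promoter accessibility per kilobase (CPM per kb of peak) was highest at Stat3 and lowest at Stat5b. Over the 11 libraries it averaged 46.4 ± 10.3 (SD) at Stat3, 40.6 ± 15.1 at Socs3, 39.8 ± 12.3 at Il6st, 35.2 ± 7.76 at Socs1, 32.9 ± 12.0 at Stat5a, 31.0 ± 7.49 at Cish, 26.7 ± 7.11 at Socs2, 23.3 ± 7.15 at Osmr, 18.5 ± 5.44 at Lifr and 11.6 ± 5.23 at Stat5b. Neighbours in this order differed by less than their SDs over libraries, except that Stat5b lay below Lifr by more than either SD. Within basal duct cells the order changed, with Socs3 first at 68.0 ± 0.331 and Stat3 next at 60.4 ± 8.62 (n = 2), whereas in luminal duct cells Il6st was first at 49.3 ± 4.75 and Stat3 next at 43.0 ± 3.72 (n = 3). The promoters most alike in pattern to each gene over the 11 libraries, among 6562 well-covered promoters, were Cluh and Klf2 for Il6st (Pearson r = 0.983 and 0.981), Gm5617 and Trim39 for Lifr (0.989 and 0.986), Prmt7 and Ankrd17 for Osmr (0.969 and 0.95), Nudc and AU022252 for Stat3 (0.969 and 0.968), Mzt2 and Pnrc2 for Stat5a (0.964 and 0.963), Grhl2 and Rpa1 for Stat5b (0.92 and 0.917), Kif1b for Socs1 (0.983), Tubgcp3 and Por for Socs2 (0.947 and 0.944), Cd151 and Nod1 for Socs3 (0.978 and 0.974), and Ppp1r15b and Fam221a for Cish (0.961 and 0.958). These are descriptions over libraries that share the promoter shift of basal TEB cells.

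**Figure D1:**
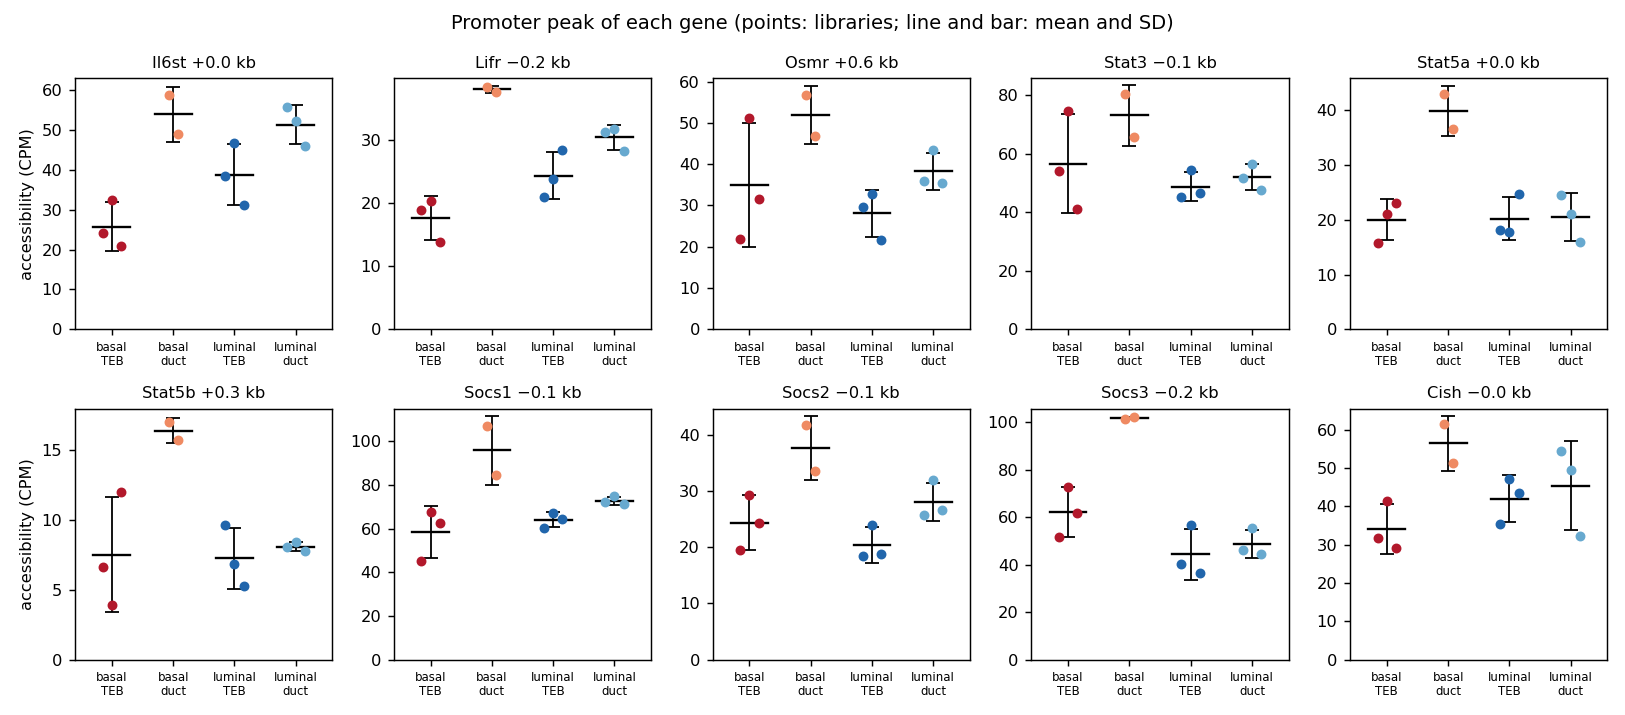
Accessibility in CPM (y axis) of the promoter peak of each of the 10 genes in basal TEB, basal duct, luminal TEB and luminal duct libraries (x axis). Points are libraries, and lines and bars are means and SDs. The 2 basal duct libraries lie above the 3 basal TEB libraries at every gene except Stat3 and Osmr, where they overlap.

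Basal and luminal cells of ducts differed at many peaks, of the 10 genes as of the whole series. In basal duct against luminal duct cells 128 of the 286 peaks were higher, 44.8% against 31.9% of all peaks tested, and 77 were lower, 26.9% against 36.7% (edgeR exact test, adjusted over all peaks). The genes leaned in different directions. At Socs3 32 of 50 peaks were higher in basal duct cells and 4 lower, at Stat3 21 of 32 and 5, and at Stat5a 4 of 6 and 1. The Il6st window leaned to luminal cells, with 4 of 22 peaks higher in basal duct cells and 13 lower. Of the 12 closest to Il6st itself, 4 were higher and 5 lower. All 5 closest to Ankrd55 and 3 of the 5 closest to Il31ra were lower. Lifr and Socs1 each had 13 of 35 peaks in either direction. Stat5b had 12 of 25 peaks higher and 6 lower, Osmr 10 of 24 and 7, Cish 11 of 31 and 6, and Socs2 8 of 26 and 9. Of the 8 closest to Cish itself, 2 were higher and 2 lower. In basal TEB against luminal TEB cells 46 peaks were higher, 16.1% against 16.6% of all peaks, and 64 lower, 22.4% against 21.2%, shares close to those of all peaks. Il6st again had 11 of 22 peaks lower in basal TEB cells, 5 of them among the 12 closest to Il6st itself, and Socs2 9 of 26. All 4 comparisons between groups share libraries with others, so that their counts are not independent.

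**Figure D2:**
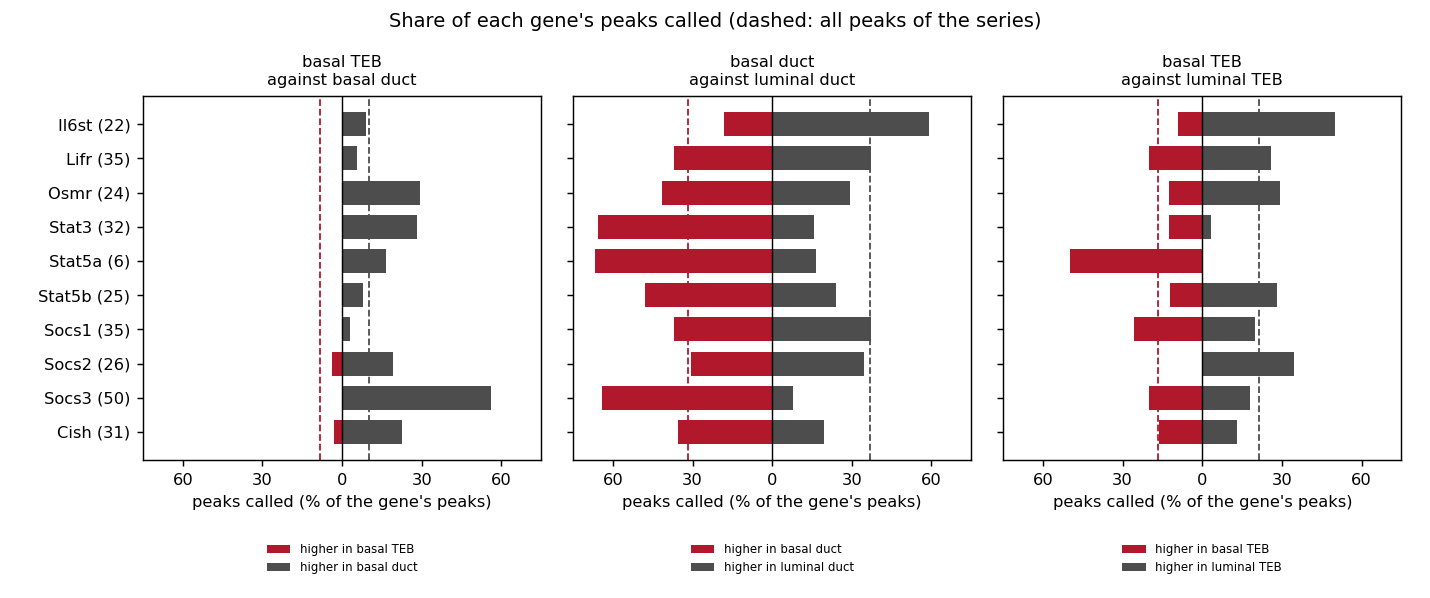
Share of each gene's peaks called in 3 comparisons (x axis, % of the number of peaks in brackets), with peaks higher in the first-named group to the left and peaks higher in the second to the right. Dashed lines are the shares over all peaks of the series; Socs3 reaches 56.0% for basal duct over basal TEB cells, against 10% of all peaks.

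Between the structures, basal cells differed and luminal cells did not pass the test. In basal TEB against basal duct cells 64 of the 286 peaks were lower, 22.4% against 10% of all peaks, and 2 were higher, 0.699% against 8.29%. The 64 fell by between 0.71 and 3.25 on the log2 scale, with a median of 1.42. Of the 17 start-site peaks 10 were lower, 58.8% against 32.6% of all start-site peaks. Their median log2 fold change was -0.72, close to the -0.65 over all protein-coding promoters. Of the 173 peaks more than 10 kb from the start site of any gene 31 were lower, 17.9% against 6.85% of all such peaks. Socs3 alone held 28 of the 64, Stat3 9, Osmr and Cish 7 each, Socs2 5, Il6st, Lifr and Stat5b 2 each, and Stat5a and Socs1 1 each. The 2 higher peaks were Socs2 +78.1 kb and Cish -93.4 kb. In luminal TEB against luminal duct cells none of the 286 peaks passed in either direction with edgeR's exact test, its quasi-likelihood test or DESeq2, against 0.437% of all peaks higher and 0.688% lower with the exact test. At an unadjusted p under 0.05 with the exact test, 11 were higher and 16 lower, against 5.77% and 6.41% of all peaks. A test of whether the TEB-to-duct difference itself differed between lineages (edgeR quasi-likelihood interaction, 250 of the 286 peaks above the count filter) called 35 peaks lower, 14.0% against 6.47% of all peaks, and 6 higher, 2.4% against 7.54%. Of the 35, 15 were at Socs3, 7 at Osmr, 6 at Stat3, 3 each at Socs2 and Cish and 1 at Stat5a.

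The count of lower peaks in basal TEB cells depended on how the libraries were scaled and on the 2 basal duct libraries. It was 15 when scaling factors came from start-site peaks, which moves the median of all peaks to a log2 fold change of 0.67, 26 with offsets by GC content, which moves it to 0.37, and 25 with DESeq2, which moves it to 0.14. It was 9 without basal duct replicate 1 and 15 without replicate 3. The share of all peaks called lower was smaller under these settings too, at 1.63%, 3.81% and 3.84%, and at 0.604% and 2.49%. At Socs3 the count was 8 of 50 with start-site scaling, 7 without basal duct replicate 1 and 10 without replicate 3, and no Socs3 peak was called higher under any setting tried. At the promoters of Il6st, Lifr, Stat5a, Stat5b, Socs1, Socs3 and Cish the basal TEB calls described below were lost without basal duct replicate 1 (edgeR adjusted p of 0.2 to 0.71) and without replicate 3 (0.066 to 0.3), while the log2 fold changes were -1.06 to -0.51 and -1.21 to -0.73. With start-site scaling they were lost too, and there the log2 fold changes were -0.45 to -0.05. All of these promoter calls were also lost with GC offsets and with loess offsets. The calls at the Stat5b, Socs1, Socs3 and Cish promoters were lost with RLE factors and with low counts filtered as well. Those at Socs3 +6.6, +36.8, -10.4 and -34.1 kb and at Osmr -34.7 kb passed under every setting. The median log2 fold change of the 50 Socs3 peaks stayed between -1.18 and -0.4 over the settings, while that of the 32 Stat3 peaks was -0.67 and reached -0.02 with start-site scaling.

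**Figure D3:**
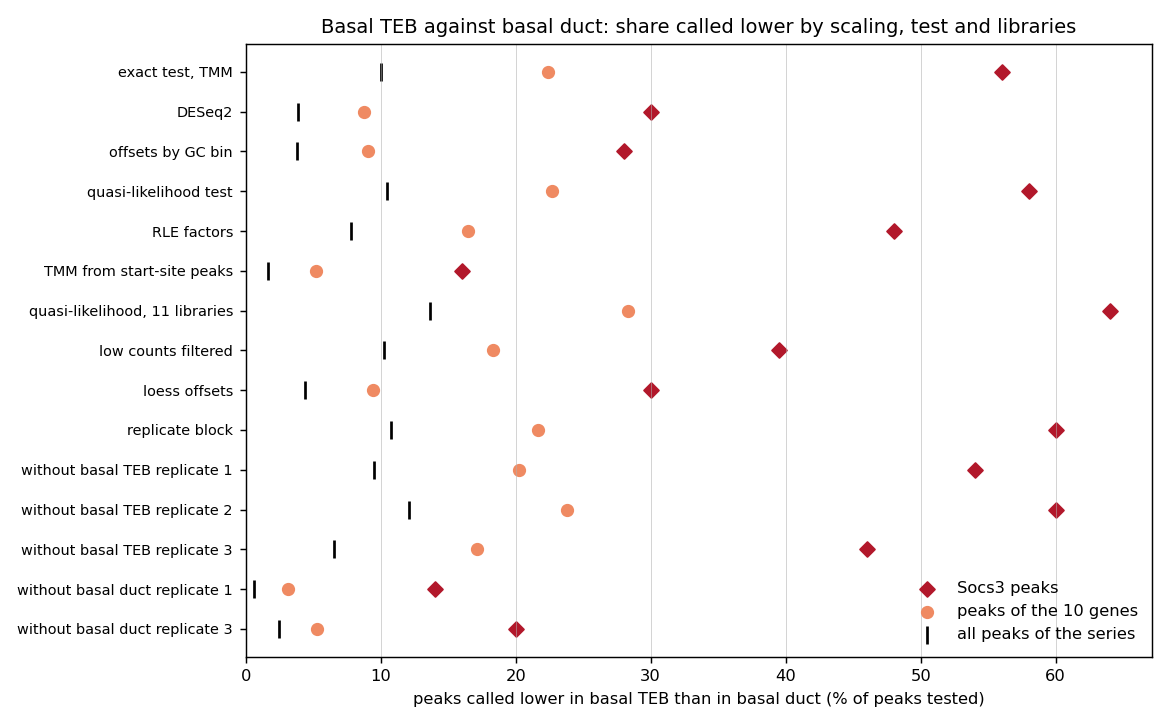
Share of peaks tested that were called lower in basal TEB than in basal duct cells (x axis, %) under each scaling, test and set of libraries (y axis), for the Socs3 peaks, the peaks of the 10 genes and all peaks. The Socs3 share is the largest of the 3 in every line, and all 3 shrink without either basal duct library.

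Among the receptor genes, Il6st encodes gp130, the signalling chain that most IL-6 family receptors share. Its promoter peak (chr13:112463592-112464633) had 24.0, 32.5 and 20.8 CPM in basal TEB replicates 1 to 3 and 58.8 and 49.0 CPM in basal duct replicates 1 and 3, and 38.4, 46.7 and 31.3 CPM in luminal TEB and 55.8, 52.2 and 46.0 CPM in luminal duct replicates 1 to 3. The basal TEB values lay below both basal duct values, and basal and luminal ducts overlapped. The log2 fold change (with an SE from the spread of log2 CPM within the groups) was -1.06 (SE 0.25) for basal TEB over basal duct cells (edgeR exact test, adjusted p = 0.0027) and 0.01 (SE 0.15, adjusted p = 0.98) for basal over luminal ducts. The first was -0.41 (adjusted p = 0.25) with start-site scaling, and the second turned to -0.30 (adjusted p = 0.0096) with it and to -0.49 with GC offsets.

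Upstream of Il6st, a pair of peaks marked opposite lineages. Il6st -24.7 kb (chr13:112438972-112439784) had 2.56, 13.7 and 8.42 CPM in basal TEB and 14.2 and 15.4 CPM in basal duct libraries, against 1.65, 1.91 and 1.98 CPM in luminal TEB and 3.39, 2.24 and 1.29 CPM in luminal duct libraries. Il6st -72.7 kb (chr13:112391144-112391689) had 1.02, 0 and 0.886 CPM in basal TEB and 1.82 and 2.46 CPM in basal duct libraries, against 8.51, 10.1 and 6.92 CPM in luminal TEB and 9.33, 8.77 and 9.24 CPM in luminal duct libraries. Neither peak's basal and luminal libraries overlapped within a structure. The log2 fold changes of basal over luminal ducts were 2.61 (SE 0.36, edgeR adjusted p = 4.9e-20) and -2.17 (SE 0.20, adjusted p = 4.5e-13).

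Lifr encodes the LIF receptor chain, and its locus held strong peaks of either lineage. Lifr -93.9 kb (chr15:7035284-7035983) had 18.9, 28.2 and 26.1 CPM in basal TEB and 29.9 and 22.9 CPM in basal duct libraries, against 1.37, 2.19 and 2.31 CPM in luminal TEB and 1.48, 1.31 and 0.645 CPM in luminal duct libraries. It was a basal peak in both structures, and the TEB and duct values overlapped. Lifr -2.7 kb, in an intron (chr15:7137544-7138077), was the reverse, with 1.02, 0.783 and 3.55 CPM in basal TEB and 4.102 and 2.31 CPM in basal duct libraries, against 24.4, 28.7 and 23.7 CPM in luminal TEB and 42.2, 35.3 and 30.7 CPM in luminal duct libraries. For basal over luminal ducts their log2 fold changes were 4.44 (SE 0.33, edgeR adjusted p = 2.5e-49) and -3.50 (SE 0.39, adjusted p = 2.8e-42), and for basal over luminal TEBs 3.64 (SE 0.25, adjusted p = 3.4e-21) and -3.82 (SE 0.49, adjusted p = 4.3e-21). The luminal TEB values of Lifr -2.7 kb lay below all 3 luminal duct values, but the difference did not pass (log2 fold change -0.49, SE 0.16, adjusted p = 0.13, and 0.047 without luminal duct replicate 3).

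Further luminal peaks stood in Lifr introns. Lifr -24.4 kb (chr15:7104751-7105531) averaged 2.66 ± 1.54 CPM in basal TEB (SD, n = 3) and 4.08 ± 1.64 in basal duct (n = 2) libraries, against 20.2 ± 0.986 in luminal TEB and 20.6 ± 3.56 in luminal duct libraries (n = 3 each). Lifr +13.2 kb (chr15:7167270-7167777) had 1.53, 0.783 and 0.886 CPM in basal TEB and 0.114 and 0.308 CPM in basal duct libraries, against 8.23, 7.92 and 6.26 CPM in luminal TEB and 13.6, 8.96 and 8.81 CPM in luminal duct libraries. Both were lower in basal cells of either structure, with log2 fold changes of -2.36 and -5.64 in ducts and -2.90 and -2.80 in TEBs (edgeR adjusted p of 9.8e-07 or less). The promoter peak of Lifr (chr15:7128673-7130112) had 18.9, 20.4 and 13.7 CPM in basal TEB and 38.3 and 37.6 CPM in basal duct libraries, and 20.9, 23.8 and 28.3 CPM in luminal TEB and 31.2, 31.7 and 28.2 CPM in luminal duct libraries. It did not pass between basal and luminal ducts, at 0.26 (SE 0.05, adjusted p = 0.093), and was lower in basal TEB than basal duct cells, at -1.10 (SE 0.18, adjusted p = 0.0016), a call lost with start-site scaling (-0.45, adjusted p = 0.26).

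Osmr encodes the oncostatin M receptor chain. Its promoter peak (chr15:6873554-6875145) spread widely in basal TEB libraries, at 22.0, 51.3 and 31.5 CPM against 56.8 and 46.8 CPM in basal duct libraries, and did not pass (-0.56, SE 0.39, edgeR adjusted p = 0.27). Luminal TEB libraries had 29.6, 32.8 and 21.7 CPM there and luminal duct libraries 35.8, 43.5 and 35.5 CPM. Without basal TEB replicate 2 the basal difference passed (-0.96, adjusted p = 0.0049). The distal Osmr -34.7 kb peak (chr15:6909047-6910273), whose STAT match is shown above, did. It had 8.18, 3.13 and 7.54 CPM in basal TEB and 29.6 and 24.0 CPM in basal duct libraries, against 6.31, 5.19 and 8.56 CPM in luminal TEB and 10.6, 6.72 and 7.95 CPM in luminal duct libraries. The 2 basal duct libraries alone stood high, and the other 9 overlapped. The log2 fold change was -2.12 (SE 0.44, adjusted p = 1.6e-06) for basal TEB over basal duct and 1.62 (SE 0.23, adjusted p = 1e-13) for basal over luminal ducts. Of the 24 Osmr peaks 7 were lower in basal TEB cells, where 10% of all peaks were, with log2 fold changes of -3.17 to -1.49. The count was 3 with DESeq2, 4 with start-site scaling or without basal duct replicate 3 and 1 without basal duct replicate 1. In the interaction test 7 of the 18 Osmr peaks above the count filter passed in that direction, where 6.47% of all peaks did.

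Among the STAT genes, Stat3 carries the signal of gp130 receptors to the nucleus. Its promoter peak (chr11:100939042-100940253) was the strongest per kilobase over all libraries, at 54.2, 74.7 and 41.2 CPM in basal TEB and 80.6 and 65.8 CPM in basal duct libraries, and 45.3, 54.4 and 46.8 CPM in luminal TEB and 51.7, 56.7 and 47.7 CPM in luminal duct libraries. The log2 fold change was 0.43 (SE 0.15, edgeR adjusted p = 0.0063) for basal over luminal ducts, a call lost with start-site scaling (0.11, adjusted p = 0.36) and without basal duct replicate 1 (0.34, adjusted p = 0.099), and -0.36 (SE 0.30, adjusted p = 0.45) for basal TEB over basal duct cells. A small intronic peak next to it, Stat3 +0.5 kb (chr11:100938744-100938957), had 2.56, 1.17 and 3.10 CPM in basal TEB against 8.55 and 7.55 CPM in basal duct libraries, and 3.01 to 4.85 CPM in luminal libraries (-1.84, SE 0.35, adjusted p = 0.0021). That call was lost with DESeq2 (adjusted p = 0.076) and with start-site scaling (adjusted p = 0.14).

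Upstream of Stat3 lay a group of basal peaks whose nearest start site was that of Cavin1. Stat3 -25.8 kb (chr11:100965150-100965501) had 12.3, 15.3 and 17.7 CPM in basal TEB and 24.6 and 22.6 CPM in basal duct libraries, against 1.37, 0.820 and 1.65 CPM in luminal TEB and 0.636, 0.560 and 1.07 CPM in luminal duct libraries. No basal library overlapped a luminal one. The log2 fold change was 4.89 (SE 0.21, edgeR adjusted p = 3.4e-56) in ducts and 3.55 (SE 0.25, adjusted p = 4.8e-16) in TEBs, and -0.64 (adjusted p = 0.11) for basal TEB over basal duct cells. This peak is 5.4 kb from the nearest start site, that of Cavin1, which encodes a coat protein of caveolae. Of the 32 peaks 9 were closest to Cavin1, and 7 of these 9 were higher in basal than in luminal ducts and 1 lower, where 31.9% of all peaks were higher and 36.7% lower.

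Stat5a and Stat5b lie side by side and transmit prolactin signals. The Stat5a -3.6 kb peak (chr11:100855449-100856047) had 12.3, 27.8 and 17.7 CPM in basal TEB and 30.1 and 28.96 CPM in basal duct libraries, against 5.21, 6.28 and 6.59 CPM in luminal TEB and 6.57, 4.48 and 3.87 CPM in luminal duct libraries. Basal libraries were above luminal ones in both structures, with log2 fold changes of 2.51 in ducts (SE 0.22, edgeR adjusted p = 1.1e-31) and 1.69 in TEBs (SE 0.36, adjusted p = 2.3e-05). Stat5b +22.9 kb, in an intron (chr11:100799313-100799845), went the other way, with 2.04, 0 and 1.33 CPM in basal TEB and 0.798 and 0.462 CPM in basal duct libraries, against 8.78, 6.83 and 7.90 CPM in luminal TEB and 12.7, 11.01 and 7.31 CPM in luminal duct libraries. Its log2 fold changes were -4.01 in ducts (SE 0.34, adjusted p = 1.3e-20) and -2.86 in TEBs (SE 0.60, adjusted p = 1.1e-06). The Stat5a promoter peak (chr11:100860123-100860845) had 15.8, 21.1 and 23.1 CPM in basal TEB and 43.1 and 36.7 CPM in basal duct libraries, and 18.1, 17.8 and 24.7 CPM in luminal TEB and 24.6, 21.1 and 15.9 CPM in luminal duct libraries, with basal ducts alone standing high. The Stat5b promoter peak (chr11:100850013-100850802) had 6.65, 3.91 and 12.0 CPM in basal TEB and 17.0 and 15.7 CPM in basal duct libraries, and 5.27 to 9.60 CPM in luminal libraries. At these promoters, basal over luminal ducts gave 0.90 (SE 0.21, adjusted p = 6e-06) at Stat5a and 0.96 (SE 0.06, adjusted p = 3.7e-06) at Stat5b. Basal TEB over basal duct cells gave -0.99 (adjusted p = 0.0046) and -1.13 (adjusted p = 0.026), neither of which passed with start-site scaling (adjusted p of 0.42 and 0.55). The Stat5b call was also lost with DESeq2 (adjusted p = 0.15), RLE factors (0.053) and low counts filtered (0.19). The same held without basal TEB replicate 1 (0.052) or 2 (0.079).

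**Figure D4:**
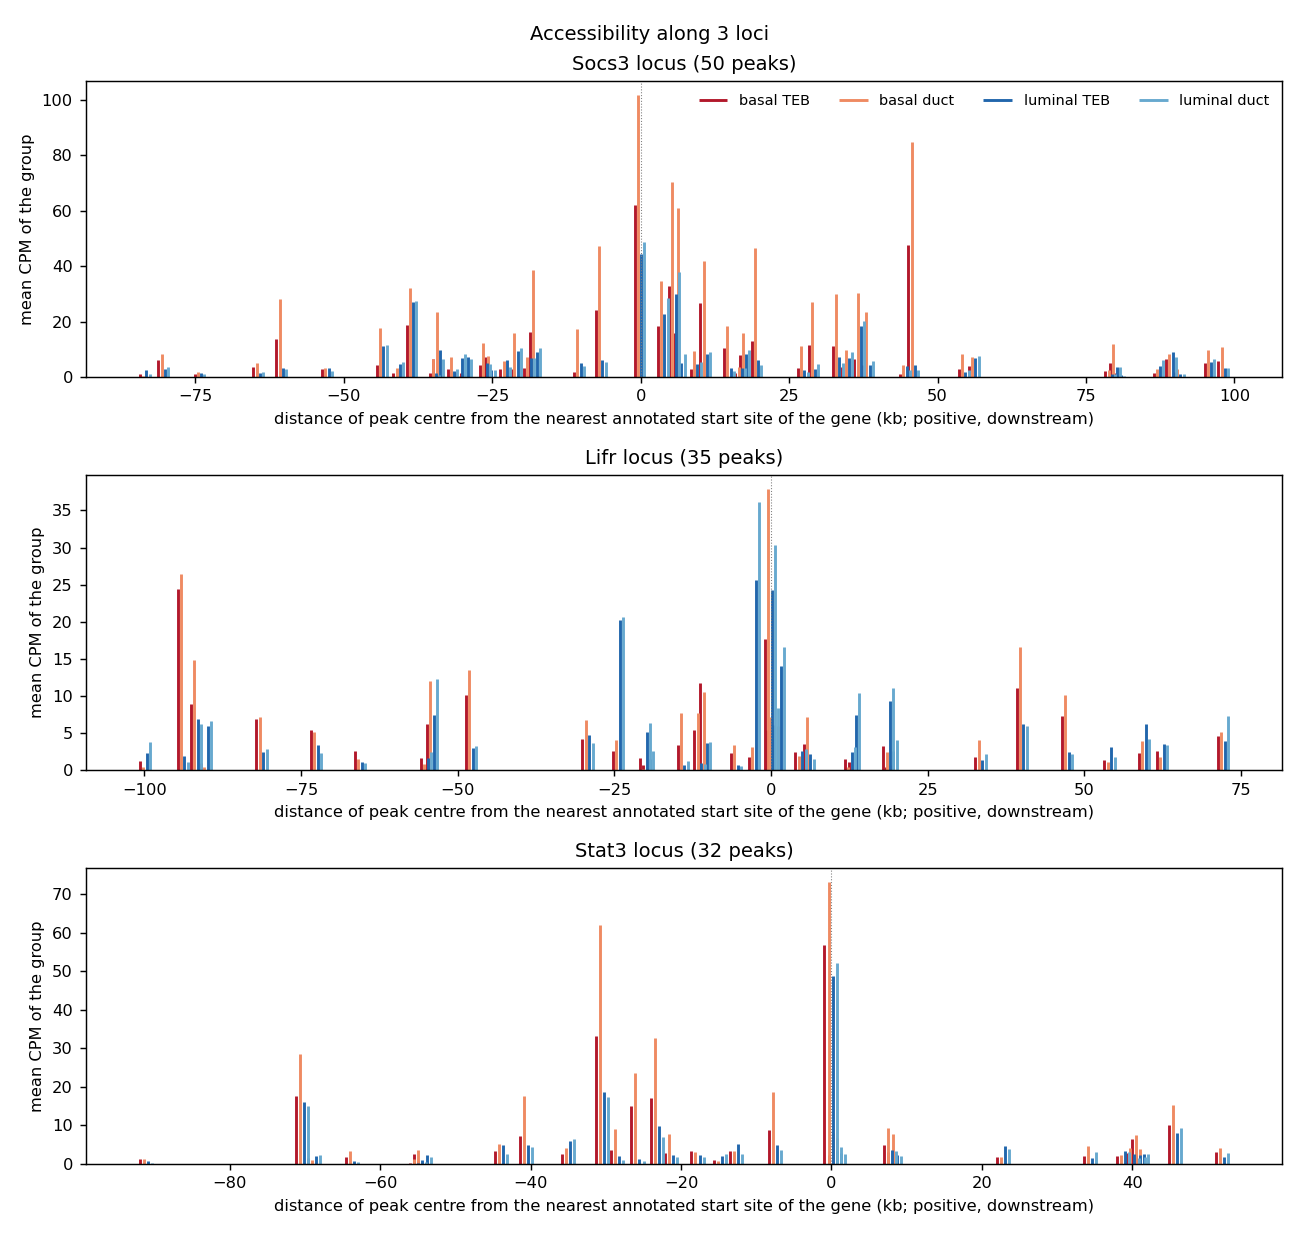
Mean accessibility of each peak (y axis, CPM) against the distance of its centre from the gene's nearest start site (x axis, kb) at Socs3, Lifr and Stat3. Each peak has 1 line per group, set side by side. Basal duct lines stand above the rest over much of the Socs3 locus, while at Lifr basal and luminal lines lead at different peaks.

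Among the SOCS genes, Socs3 encodes a protein that binds gp130 and is the main brake on IL-6 family signalling. Its promoter peak (chr11:117968632-117970128) had 51.6, 72.8 and 61.6 CPM in basal TEB and 101 and 102 CPM in basal duct libraries, and 40.1, 56.6 and 36.6 CPM in luminal TEB and 46.0, 55.4 and 44.3 CPM in luminal duct libraries. Both basal duct libraries were above all the others, and the basal TEB libraries overlapped the luminal ones. The log2 fold change was 1.00 (SE 0.10, edgeR adjusted p = 3.6e-12) for basal over luminal ducts and -0.71 (SE 0.15, adjusted p = 0.027) for basal TEB over basal duct cells, and the second turned to 0.04 (adjusted p = 0.91) with GC offsets. That second call was also lost with RLE factors (adjusted p = 0.056) and the quasi-likelihood test on the pair (0.057). The same held with low counts filtered (0.27), with loess offsets (0.29) and without basal TEB replicate 1 (0.063) or 3 (0.13).

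The Socs3 +45.9 kb peak (chr11:117922490-117924119) had the smallest p of the 286 between the lineages. It had 44.5, 47.0 and 51.0 CPM in basal TEB and 86.5 and 83.3 CPM in basal duct libraries, against 5.76, 4.92 and 2.31 CPM in luminal TEB and 2.12, 2.42 and 2.79 CPM in luminal duct libraries. No basal library came near a luminal one. Its log2 fold changes were 5.05 (SE 0.10, edgeR adjusted p = 4.1e-133) in ducts and 3.42 (SE 0.34, adjusted p = 7e-30) in TEBs. The basal TEB values also lay below the basal duct values (-0.84, SE 0.07, adjusted p = 0.0039), a call lost with start-site scaling (-0.18, adjusted p = 0.65).

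Other Socs3 peaks were set apart by structure within the basal lineage. Socs3 +6.6 kb (chr11:117962267-117962892) had 14.8, 17.6 and 15.1 CPM in basal TEB and 67.2 and 54.7 CPM in basal duct libraries, against 4.39, 5.74 and 5.27 CPM in luminal TEB and 5.51, 13.6 and 5.59 CPM in luminal duct libraries. Socs3 +36.8 kb (chr11:117932052-117932767) had 4.601, 8.22 and 6.21 CPM in basal TEB and 34.4 and 26.2 CPM in basal duct libraries, against 16.5, 23.2 and 15.2 CPM in luminal TEB and 20.1, 22.8 and 18.1 CPM in luminal duct libraries. At +6.6 kb basal TEB cells stood between basal duct and luminal cells, whereas at +36.8 kb they were below all the others. The basal TEB over basal duct log2 fold changes were -1.94 (SE 0.19, edgeR adjusted p = 1.3e-09) and -2.23 (SE 0.31, adjusted p = 2e-08).

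Upstream of Socs3, a pair of peaks nearer the start site of Pgs1, a phospholipid synthesis gene, also differed by structure. Socs3 -10.4 kb (chr11:117979293-117979919) had 0.511, 0.783 and 3.99 CPM in basal TEB and 16.2 and 18.2 CPM in basal duct libraries, against 2.74, 7.92 and 4.28 CPM in luminal TEB and 4.24, 5.22 and 2.15 CPM in luminal duct libraries. Socs3 -34.1 kb (chr11:118003051-118003556) had 4.09, 8.61 and 7.09 CPM in basal TEB and 24.4 and 22.6 CPM in basal duct libraries, against 9.33, 10.1 and 9.55 CPM in luminal TEB and 8.69, 6.16 and 4.94 CPM in luminal duct libraries. Basal duct libraries were the highest at both. Their basal TEB over basal duct log2 fold changes were -3.25 (SE 0.68, edgeR adjusted p = 3.6e-09) and -1.80 (SE 0.31, adjusted p = 7.5e-06). Summed over its 50 peaks, Socs3 had 392.6, 473.5 and 463.6 CPM in basal TEB and 1031 and 929.7 CPM in basal duct libraries, against 330.7, 408.5 and 330.3 CPM in luminal TEB and 370.4, 436.6 and 319.6 CPM in luminal duct libraries, so that basal ducts stood alone. Of these, 16 of the 19 peaks closest to Socs3 itself were lower in basal TEB than in basal duct cells, 10 of the 21 closest to Pgs1 and 2 of the 10 closest to Tha1, and the log2 fold changes of these 28 were -3.25 to -0.71.

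SOCS1 inhibits JAK kinases downstream of interferon and other receptors. Its promoter peak (chr16:10784652-10786659) had 45.0, 67.7 and 62.5 CPM in basal TEB and 107 and 84.7 CPM in basal duct libraries, and 60.4, 67.2 and 64.5 CPM in luminal TEB and 72.3, 74.8 and 71.1 CPM in luminal duct libraries. Basal TEB values lay below basal duct values, but the call was at the threshold (-0.71, SE 0.26, edgeR adjusted p = 0.047) and turned to 0.05 with GC offsets. That call was also lost with DESeq2 (adjusted p = 0.064), RLE factors (0.086) and the quasi-likelihood test on the pair (0.058). Socs1 +30.8 kb (chr16:10754213-10755229) had 7.16, 16.8 and 11.1 CPM in basal TEB and 10.4 and 9.71 CPM in basal duct libraries, against 42.3, 49.5 and 38.5 CPM in luminal TEB and 45.6, 44.2 and 45.4 CPM in luminal duct libraries. It was a luminal peak in both structures, at -2.22 in ducts (SE 0.04, adjusted p = 4.2e-41) and -1.86 in TEBs (SE 0.36, adjusted p = 3.7e-09), and its TEB and duct values overlapped in both lineages. Apart from its promoter, no Socs1 peak was called between basal TEB and basal duct cells with the exact test. The median log2 fold change of the 35 Socs1 peaks was 0.41, against -0.53 over the 286. With start-site scaling 6 Socs1 peaks were higher in basal TEB cells, where 14.5% of all peaks were. With low counts filtered 2 of the 16 Socs1 peaks tested were higher, where 15.1% of all peaks were. With loess offsets 2 of the 35 were higher, where 7.93% of all peaks were. With the quasi-likelihood test over 11 libraries 1 was higher and 3 lower, where 13.9% and 13.7% of all peaks were.

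**Figure D5:**
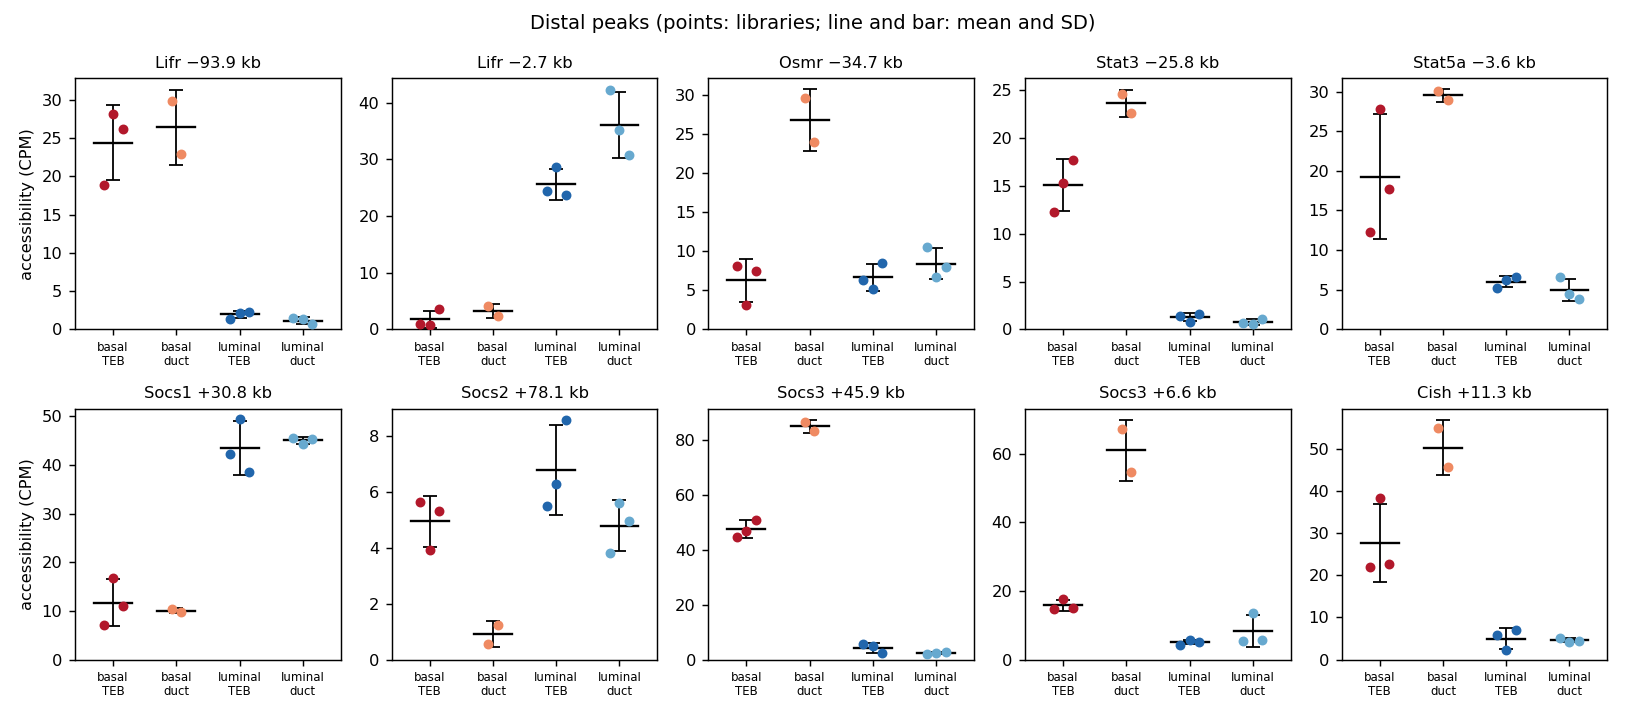
Accessibility (y axis, CPM) of 10 distal or intronic peaks in basal TEB, basal duct, luminal TEB and luminal duct libraries (x axis). Points are libraries, and lines and bars are means and SDs. Lifr -2.7 kb and Socs1 +30.8 kb are high in luminal libraries, Socs2 +78.1 kb is low in basal duct libraries alone, and the other 7 are highest on average in basal duct libraries.

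SOCS2 limits growth hormone signalling. The Socs2 -0.1 kb promoter peak (chr10:95416477-95417475) had 19.4, 29.4 and 24.4 CPM in basal TEB and 41.7 and 33.6 CPM in basal duct libraries, and 18.4 to 31.9 CPM in luminal libraries. It did not pass between basal TEB and basal duct cells (-0.62, SE 0.25, edgeR adjusted p = 0.11), but did with the quasi-likelihood test over 11 libraries (-0.61, adjusted p = 0.031) and without basal TEB replicate 2 (-0.78, adjusted p = 0.025). A second start-site peak, Socs2 +0.0 kb (chr10:95414658-95415828), had 12.8, 8.22 and 11.1 CPM in basal TEB and 34.6 and 28.96 CPM in basal duct libraries, against 28.0, 22.9 and 25.7 CPM in luminal TEB and 23.3, 28.6 and 20.9 CPM in luminal duct libraries. The 3 basal TEB libraries were below the other 8. The log2 fold change was -1.59 (SE 0.23, adjusted p = 1.9e-05) over basal ducts and -1.27 (SE 0.18, adjusted p = 1.8e-05) over luminal TEBs, and the first passed with every scaling tried but not without basal duct replicate 1 (-1.42, adjusted p = 0.076).

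Farther out, a pair of Socs2 peaks were closer to other genes. Socs2 +78.1 kb, near Cradd (chr10:95336911-95337411), had 5.62, 3.91 and 5.32 CPM in basal TEB and 0.570 and 1.23 CPM in basal duct libraries, against 5.49, 6.28 and 8.56 CPM in luminal TEB and 3.82, 5.597 and 4.94 CPM in luminal duct libraries. Here basal ducts were the low group. It was higher in basal TEB than basal duct cells (2.46, SE 0.37, edgeR adjusted p = 0.00077), and the call was lost without basal duct replicate 1 (1.99, adjusted p = 0.33) or replicate 3 (3.02, adjusted p = 0.077). Socs2 -48.9 kb, near Mrpl42 (chr10:95465597-95465988), averaged 1.10 ± 0.962 CPM in basal TEB (SD, n = 3) and 0.114 ± 0.161 in basal duct libraries (n = 2), against 6.36 ± 1.17 in luminal TEB and 5.48 ± 2.33 in luminal duct libraries (n = 3 each), and was lower in basal cells of both structures (-5.25 in ducts and -2.56 in TEBs, adjusted p = 6.6e-13 and 4.2e-05).

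CISH is a classical STAT5-induced inhibitor. Its promoter peak (chr9:107296004-107297405), with the 4 STAT matches, had 31.7, 41.5 and 29.2 CPM in basal TEB and 61.6 and 51.5 CPM in basal duct libraries, and 35.4, 47.3 and 43.5 CPM in luminal TEB and 54.5, 49.4 and 32.2 CPM in luminal duct libraries. Basal TEB and basal duct values did not overlap, at -0.72 (SE 0.22, edgeR adjusted p = 0.041), a call lost with start-site scaling (-0.07) and GC offsets (-0.31). It was also lost with DESeq2 (adjusted p = 0.10), RLE factors (0.085) and the quasi-likelihood test on the pair (0.054). The same held with low counts filtered (0.32), with loess offsets (0.54) and without basal TEB replicate 1 (0.081) or 3 (0.22). Cish +11.3 kb (chr9:107307383-107308681) was a basal peak, with 22.0, 38.4 and 22.6 CPM in basal TEB and 54.8 and 45.6 CPM in basal duct libraries, against 5.76, 2.19 and 6.92 CPM in luminal TEB and 5.09, 4.11 and 4.51 CPM in luminal duct libraries. Its log2 fold changes were 3.40 in ducts (SE 0.15, adjusted p = 9.5e-61) and 2.5 in TEBs (SE 0.51, adjusted p = 1.5e-09).

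Farther out, 2 Cish peaks lay nearer other genes. Cish +31.5 kb, near Hemk1 (chr9:107327844-107328628), had 6.13, 0.783 and 0.443 CPM in basal TEB against 13.8 and 15.7 CPM in basal duct libraries, and 1.29 to 3.57 CPM in luminal libraries (-2.66, SE 0.90, edgeR adjusted p = 0.00012), with basal TEB replicate 1 above the others, and the call was lost without basal duct replicate 1 (-2.70, adjusted p = 0.071) or 3 (-2.56, adjusted p = 0.058). Cish -93.4 kb, 29.2 kb from Dock3 (chr9:107202566-107202716), had 5.11, 1.96 and 1.77 CPM in basal TEB and 0.228 and 0.154 CPM in basal duct libraries, and 0 to 1.32 CPM in luminal libraries (3.70, SE 0.43, adjusted p = 0.0025). That peak is 151 bases wide and all of it is soft-masked as repeat, and its call was lost without basal duct replicate 1 (3.95, adjusted p = 0.30) or 3 (3.47, adjusted p = 0.18).

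Promoters of other genes of the pathway were lower in basal TEB than in basal duct cells wherever they passed, and the median over all protein-coding promoters was below 0 too. Of 10 ligand genes 7 had a promoter peak, and all 7, Il6, Lif and Il11 among them, were called higher in basal than in luminal ducts (edgeR exact test), where 44.1% of all protein-coding promoters were. Their median log2 fold change was 1.41. Clcf1, which encodes a cytokine acting through the CNTF receptor, had the smallest p of the list between the basal structures (-1.66, edgeR adjusted p = 3.5e-07), with 17.5 CPM on average in basal TEB and 55.4 CPM in basal duct libraries, against 18.6 CPM in luminal TEB and 17.4 CPM in luminal duct libraries. Of these 7, 4 were lower in basal TEB than in basal duct cells, where 35.7% of protein-coding promoters were. Of 14 measured other receptors 6 were lower there, of the 4 JAK kinase genes 3, led by Jak3 (-2.19, edgeR adjusted p = 0.0001), of the 4 other SOCS genes 3, led by Socs6 (-1.10, adjusted p = 0.0018), of 10 other inhibitors 3 and of 20 STAT target genes 9, led by Cebpd (-1.59, adjusted p = 5e-07), and none of these promoters was higher, where 0.64% of protein-coding promoters were. In luminal TEB against luminal duct cells, Il6ra, Tyk2, Socs6 and Mcl1 were lower and no listed promoter was higher, where 2.95% of protein-coding promoters were lower and 0.16% higher.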

How the data were processed

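ATAC-seq libraries of 11 mouse mammary cell samples were analysed, in the groups that the sample labels give. Per the labels and the methods of the study, the authors mapped the reads to the mm10 genome (Bowtie2 2.3.4.3 in the submitters' processing notes), removed duplicates, pooled the replicates of a population before peak calling by MACS2, merged overlapping peaks and deposited raw read counts per peak for each library. No value other than these deposited counts was used. Per the series' design text, tissue came from 3 independent pools of mice.

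Peaks were assigned by distance to GENCODE vM21 start sites (GRCm38). Counts were tested for every peak that had any read in either group, with edgeR 4.0.16 (R 4.3.3), TMM factors and the exact test for each pair of groups, and with the quasi-likelihood test for the interaction over the 11 libraries, after removal of low counts. P-values were adjusted by Benjamini-Hochberg over all peaks tested, with a threshold of 0.05. CPM used TMM factors over the 11 libraries, so that CPM of a sample and a fold change of a pair rest on separately computed factors. SEs come from the variance of log2 CPM within the groups of a pair. Alternatives were DESeq2 1.42.0, RLE factors, factors from start-site peaks, offsets from 20 bins of GC content, loess offsets, a filter on low counts, quasi-likelihood tests, a replicate block, other windows and leaving out each library. The tests were checked on simulated counts.

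Named peaks were the promoter peak of each gene (within 500 bp of a start site, with the highest mean level) and, among peaks past the test, the 3 smallest p per direction and comparison, the most lineage-different and most structure-different peak of each gene and the 3 smallest interaction p. In each pathway list the smallest p per direction were named, and for each promoter the 2 most correlated promoters above the median level, some of which are not reported here. The genes, gene lists and motifs were chosen with earlier results of these data known. Totals of 1821942 to 9986384 counts limit precision, and basal ducts have 2 libraries.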

Additional observations from a re-analysis of the deposited data

Results flagged for a closer look

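The change between TEB and duct differed between the lineages (edgeR quasi-likelihood interaction over 11 libraries, adjusted over all peaks) at 11 of the named peaks. At 9 it was more negative in the basal than in the luminal lineage. The interaction on the log2 scale was -3.53 at Socs3 -10.4 kb (adjusted p = 0.00011, with -3.25 in basal and 0.36 in luminal cells), -2.0 at Socs3 +36.8 kb (adjusted p = 0.00012), -2.27 at Socs3 -34.1 kb (adjusted p = 0.00013), -1.61 at Socs3 +45.9 kb (adjusted p = 0.0051) and -1.16 at Socs3 +6.6 kb (adjusted p = 0.041). It was -1.72 at Osmr -34.7 kb (adjusted p = 0.0055), -0.88 at Stat5a +0.0 kb (adjusted p = 0.039), -1.59 at Socs2 +0.0 kb (adjusted p = 0.00049) and -2.84 at Cish +31.5 kb (adjusted p = 0.0049). It was 2.06 at Socs2 +78.1 kb (adjusted p = 0.019, and 0.21 without basal duct replicate 1) and 2.78 at Lifr +13.2 kb (adjusted p = 0.044, and 0.24 without basal duct replicate 1). At Socs3 +6.6 kb and Stat5a +0.0 kb the call was lost with DESeq2, RLE factors, GC offsets, loess offsets and start-site scaling. At Lifr +13.2 kb it was lost with DESeq2 (adjusted p = 0.053), loess offsets (0.051) and no count filter (0.053), and without any one of several libraries. Basal counts at that peak were very low. Basal TEB over basal duct cells did not pass there (2.23, edgeR exact test, adjusted p = 0.24). All 11 rest on the same 2 basal duct libraries.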

How the results depend on the processing

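Over the 164 results for named peaks, 2261 of 2473 alternative values kept their direction and their side of the threshold, 155 lost the call, 51 gained one and 6 turned round. For basal TEB over basal duct cells, offsets by GC content turned the log2 fold change to 0.05 at Socs1 -0.1 kb and 0.04 at Socs3 -0.2 kb. For basal over luminal ducts they gave -0.49 at Il6st +0.0 kb, -0.17 at Socs1 -0.1 kb and -0.15 at Socs2 -0.1 kb, and start-site scaling gave -0.30 at Il6st +0.0 kb. The cause was not tested.

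Shares in brackets are those of all peaks called in the same direction under the same setting. The 2 peaks higher in basal TEB than in basal duct cells became 4 with GC offsets (11.3%), loess offsets (7.93%) or the replicate block (8.42%). They became 10 with start-site scaling (14.5%) and 7 with the quasi-likelihood test over 11 libraries (13.9%). The count was 0 with a 50 kb window or with peaks whose nearest start site is the gene's own, where fewer peaks were counted. The 64 lower became 25 with DESeq2 (3.84%), 26 with GC offsets (3.81%), 15 with start-site scaling (1.63%) and 27 with loess offsets (4.39%). With low counts filtered, 28 of the 153 peaks tested were lower (10.2%). By nearest start site the count was 42, with fewer peaks counted. In luminal TEB over luminal duct cells, 1 peak was higher with start-site scaling (1.13%) and 1 of the 188 tested with low counts filtered (1.36%). In basal over luminal ducts, the 128 higher and 77 lower became 85 and 46 with a 50 kb window and 73 and 43 by nearest start site, where fewer peaks were counted. In basal over luminal TEBs, the 46 higher became 28 by nearest start site, where fewer peaks were counted. The 64 lower became 41 with DESeq2 (15.2%), 38 with GC offsets (13.1%) and 36 by nearest start site. With low counts filtered, 40 of the 150 peaks tested were lower (30.9%). The interaction's 6 higher became 10 with start-site scaling (12.6%) and 3 with a 50 kb window. Its 35 lower became 19 with DESeq2 (2.84%), 22 with GC offsets (4.21%), 20 with start-site scaling (2.68%) and 21 by nearest start site.

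Leaving out 1 library at a time gave 0 to 7 higher and 9 to 68 lower peaks in basal TEB over basal duct cells, 0 higher and 0 to 2 lower in luminal TEB over luminal duct cells, 110 to 126 and 59 to 77 in basal over luminal ducts, 32 to 46 and 49 to 63 in basal over luminal TEBs, and 0 to 9 and 17 to 44 for the interaction. With 1 basal duct library left, it is assumed to vary like the others.

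Libraries of the same replicate number correlated at 0.00651 to 0.0943, under 0.1, so the numbers were not taken as pairs. Between luminal TEB and luminal duct libraries, however, same numbers gave 0.076 to 0.0943 and all other pairings were negative. Luminal TEB replicate 3 correlated better with basal TEB replicate 1 (0.0146) than with its own number (0.00651). Whether the numbers mark pairs was not tested. With the replicate as a block, the counts of higher and lower peaks were 4 and 62, 0 and 0, 122 and 69, 37 and 54, and 6 and 38 in the same order. With the block, 3 promoters that had not passed were called lower in basal TEB than in basal duct cells, Osmr +0.6 kb (-0.95, adjusted p = 0.0035), Socs2 -0.1 kb (-0.77, adjusted p = 0.034) and Stat3 -0.1 kb (-0.63, adjusted p = 0.049). Stat5b +0.3 kb lost its call (-0.82, adjusted p = 0.11).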
